A study of Mus musculus with 2 samples.

Results

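A set of 10 genes that marks hepatocytes at the portal end of the liver lobule was followed in single-cell RNA-Seq (scRNA-Seq) counts from undamaged liver and from liver 48 h after partial hepatectomy (PHx), an operation that takes out most of the organ and lets the rest grow back. The genes were Cyp2f2, Hal, Hsd17b13, Ctsc, Etnppl, Aldh1b1, Apof, Cdh1, Gls2 and Hsd17b6. They were listed by name as periportal genes by a rule that uses no measured value, though with earlier results of these data known, and all 10 were present among the 27998 genes of the count tables. Each was set against Cyp2e1, the cytochrome P450 that marks the opposite, pericentral end.

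In GRCm38 (GENCODE M21) 4 of the genes lie on chromosome 10, Hal at 93488768-93519304 and, closer together, Hsd17b6 at 127990936-128007611, Gls2 at 128194457-128210004 and Apof at 128268671-128270153. Cyp2f2 (27119909-27133660), Ctsc (88278085-88310888) and Cyp2e1 (140763739-140774987) lie on chromosome 7. Etnppl, Aldh1b1, Hsd17b13 and Cdh1 lie on chromosomes 3, 4, 5 and 8.

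Both libraries held hepatocytes isolated with a two-step collagenase perfusion from mice labelled C57BL/6 (C57BL/6J in the study methods) and kept on normal diet, which the labels place at 10 to 12 weeks of age and the study methods describe as males. The undamaged library (0 h) came from a healthy liver and the PHx48h library from a liver 48 h after the operation. The authors obtained 1 library per time point with the droplet assay of 10x Genomics, version 2, which tags every molecule with a unique molecular identifier (UMI) and every droplet with a barcode. With 1 library per group there was no replicate, so no test between the time points was possible, differences between animals and between times cannot be told apart, and every interval below is a 95% interval for counting error only.

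In the liver lobule blood enters at the portal triads and drains at the central vein, and hepatocytes along this path differ in the genes they use. Periportal hepatocytes are known for gluconeogenesis, urea synthesis and breakdown of amino acids. Pericentral hepatocytes are known for glutamine synthesis and drug metabolism, and Wnt signals from the central vein sustain many of their genes, Cyp2e1 among them.

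The barcodes were divided by the share of their UMIs that came from the 13 mitochondrial (mt) genes. In the undamaged library 3870 of 59202 barcodes had more than 30% mt UMIs and 52587 had less than 2%. In the PHx48h library these sets held 765 and 522 of 1586 barcodes. The median mt share of the >30% mt barcodes was 48.2% at 0 h and 57.0% at 48 h. The authors excluded cells with high mt content, at a limit they do not state. Barcodes of this set may therefore be among those they left out. The median number of UMIs outside the mt genes was 1213.5 (>30% mt) and 1413 (<2% mt) at 0 h, and 4411 and 5271.5 at 48 h. The label was checked against markers of other cells. In the >30% mt barcodes the 10 hepatocyte markers together were at 163615 (0 h) and 138919 (48 h) UMIs per 1000000 non-mt UMIs (CPM), against 41.4 and 27.2 for 10 macrophage markers and 39.1 and 59.4 for 10 endothelial markers. Barcodes in which the markers of another cell class reached 1% of the non-mt UMIs numbered 278 at 0 h and 43 at 48 h, and only 1 of these lay in a >30% mt set. The libraries shared 148 barcode sequences.

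The stretch upstream of the start of 4 of the genes is shown because their levels in the >30% mt barcodes differed in different directions: Cyp2f2 was lower at 48 h, Hsd17b13 and Aldh1b1 were higher, and Hal differed little on non-mt UMIs, though it was lower with trimmed-mean (TMM) scaling. Each line gives 120 bases ending just before the gene start, written 5′ to 3′ on the strand of the gene, in GRCm38 coordinates and from RefSeq promoter windows of GRCm38.p6. Capitals mark a match to a searched motif, on either strand.
Cyp2f2, chr7:27119789-27119908, plus strand: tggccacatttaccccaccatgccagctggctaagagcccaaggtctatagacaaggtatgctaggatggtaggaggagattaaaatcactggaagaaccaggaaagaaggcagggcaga
Hsd17b13, chr5:103977411-103977530, minus strand: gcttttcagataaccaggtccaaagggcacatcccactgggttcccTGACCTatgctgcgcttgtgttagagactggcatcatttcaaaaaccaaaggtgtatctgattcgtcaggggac
Aldh1b1, chr4:45798902-45799021, plus strand: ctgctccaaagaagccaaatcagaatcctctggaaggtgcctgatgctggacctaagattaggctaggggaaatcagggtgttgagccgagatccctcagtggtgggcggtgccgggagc
Hal, chr10:93488648-93488767, plus strand: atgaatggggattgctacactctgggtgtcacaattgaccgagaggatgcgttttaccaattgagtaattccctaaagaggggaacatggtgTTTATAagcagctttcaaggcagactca
The capitals in Hsd17b13 are the reverse complement of the nuclear receptor half-site AGGTCA, and those in Hal are the reverse complement of the TATA motif TATAAA. Windows were found for 7 of the 10 genes, each 300 bases long. Over all 32851 promoter windows of that length, 16.3% held AGGTCA and 13.6% held TATAAA on either strand. The full Cyp2f2 window held 1 AGGTCA outside the stretch shown, and the Aldh1b1 window held none of the 5 motifs searched. The full Hal window also held CTTTGAT, the core that TCF and LEF factors recognise, which 3.73% of windows held, and TTGCNNAA, a C/EBP motif, which 10.8% held. GTTAAT, a half-site of HNF1 (7.10% of windows), and AGGTCA occurred in 1 of the 2 Etnppl windows. A match is a string of letters and was not tested as a site of binding.

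The genes did not all differ in one direction between the time points in the >30% mt barcodes. Among them, 1 was at least 2-fold lower at 48 h (Cyp2f2) and 2 were at least 2-fold higher (Hsd17b13 and Aldh1b1), while across the 7418 genes that reached 10 CPM at either time 5.62% were at least 2-fold lower and 32.6% at least 2-fold higher. The median log2 ratio of 48 h over 0 h was -0.14 over the 10 genes and 0.59 over all genes compared, a difference of -0.73. With TMM scaling, which lowered the median of all genes by 0.56 on the log2 scale to 0.03, 3 of the 10 were at least 2-fold lower and 2 at least 2-fold higher. The shares of all genes past 2-fold were not computed at that scaling. TMM shifts every gene by the same amount, so the difference of -0.73 between the medians cannot change with it. All 10 genes passed the filter on low values in both sets of barcodes.

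**Figure D1:**
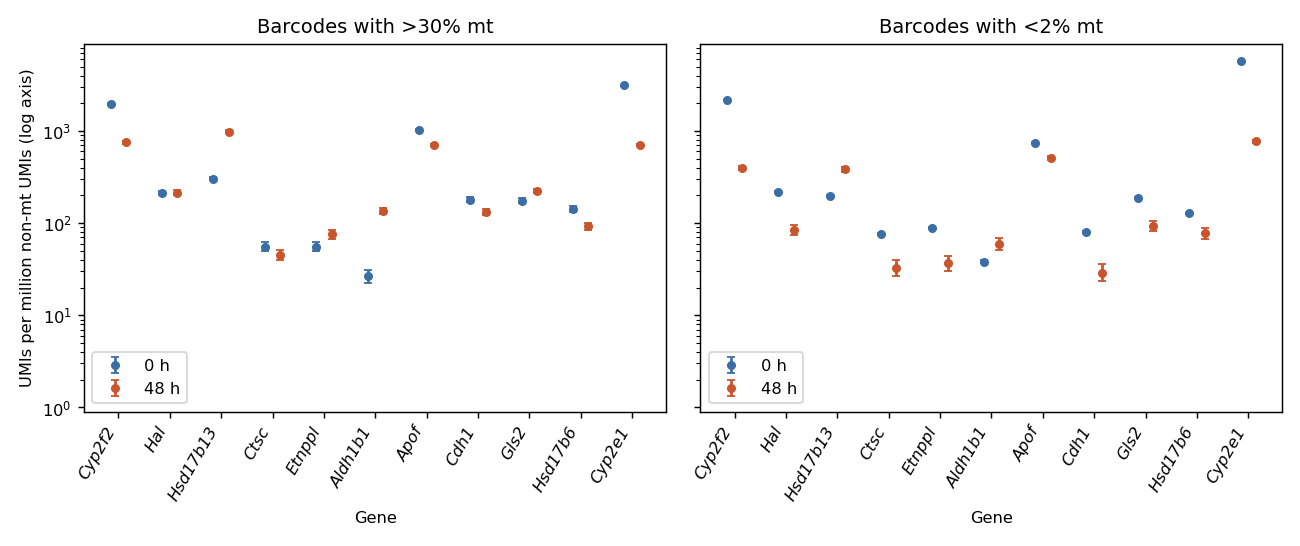
Level in CPM (UMIs per 1000000 non-mt UMIs, log axis) of the 10 periportal genes and Cyp2e1 at 0 h (blue) and 48 h (orange), in barcodes with more than 30% mt UMIs (left) and less than 2% (right). Points are sums over all barcodes of 1 library and bars are 95% Poisson intervals, which are narrower than the points for deeply counted genes. In the left panel the points of Hal nearly coincide, at 212 and 214 CPM, while those of Aldh1b1 lie at 26.5 and 135 CPM.

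Of the oxidoreductases, Cyp2f2, a cytochrome P450 that oxidises naphthalene and other small molecules, was at 1968 CPM (11370 UMIs) at 0 h and 752 CPM (3836 UMIs) at 48 h in the >30% mt barcodes. It was lower at 48 h by 1.39 on the log2 scale (1.34 to 1.44). Hsd17b13, a lipid droplet protein of the hydroxysteroid dehydrogenase family, was higher at 48 h, with 305 CPM (1762 UMIs) against 985 CPM (5028 UMIs), a log2 ratio of 1.69 (1.61 to 1.77). Aldh1b1, a mitochondrial aldehyde dehydrogenase, had the widest ratio of the 10, from 26.5 CPM (153 UMIs) to 135 CPM (689 UMIs), or 2.35 (2.10 to 2.61). Hsd17b6, which oxidises retinol and steroids, had 143 CPM at 0 h and 92.3 CPM at 48 h, a log2 ratio of -0.63 (-0.80 to -0.47). Within this group of enzymes the libraries therefore differed in opposite directions, and no interval of the ratio reached 0.

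Among the enzymes of amino acid and amine breakdown, Hal, which removes ammonia from histidine, had 212 CPM (1225 UMIs) at 0 h and 214 CPM (1091 UMIs) at 48 h. Its log2 ratio of 0.01 had an interval from -0.11 to 0.13, so a difference beyond that range was not seen in these libraries under this scaling, and with TMM the ratio was -0.55. Gls2, the liver-type glutaminase, had 174 and 223 CPM, a ratio of 0.35 (0.23 to 0.48) that became -0.21 with TMM. Etnppl, a lyase that breaks down phosphoethanolamine, had 55.4 and 75.4 CPM, a ratio of 0.45 (0.23 to 0.66) that became -0.11 with TMM. The direction of these 3 genes thus depended on how the libraries were scaled, and none differed by 2-fold.

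The remaining genes encode an apolipoprotein, an adhesion protein and a protease. Apof, a secreted inhibitor of lipid transfer, had 1021 CPM (5899 UMIs) at 0 h and 705 CPM (3599 UMIs) at 48 h, a log2 ratio of -0.53 (-0.59 to -0.47). Cdh1, the gene of E-cadherin, which joins epithelial cells, had 179 and 133 CPM, a ratio of -0.43 (-0.57 to -0.29). Ctsc, cathepsin C, a lysosomal protease that activates other proteases, had 55.4 and 45.1 CPM, a ratio of -0.30 (-0.55 to -0.05). All 3 were lower at 48 h by less than 2-fold, against 4.44-fold lower for Cyp2e1, which had 3144 CPM at 0 h and 708 CPM at 48 h.

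In the <2% mt barcodes more of the genes were lower at 48 h. The 2 libraries may not hold like barcodes in this set, since the sources do not say what the 52587 undamaged barcodes are, and their counts of the 10 genes varied by little more than counting error (a variance of 1.02 times the mean, against 1.18 for the 522 barcodes at 48 h). Stromal markers were at 27.1 CPM at 0 h and 168 CPM at 48 h in this set, and erythroid markers at 246 and 27.7 CPM, and their part in the ratios was not tested. With these values beside them, 6 of the 10 were at least 2-fold lower and none was at least 2-fold higher, where 22.3% of the 6392 genes compared were at least 2-fold lower and 26.7% at least 2-fold higher. The median log2 ratio was -1.13 over the 10 genes and 0.11 over all genes. Cyp2f2 had 2161 CPM (170209 UMIs) at 0 h and 398 CPM (1248 UMIs) at 48 h, a log2 ratio of -2.44. Cdh1 had 79.6 and 29.0 CPM (-1.46), Hal 220 and 83.9 CPM (-1.39), and Etnppl 88.2 and 37.0 CPM (-1.25). Ctsc, at 76.6 and 32.5 CPM (-1.24), and Gls2, at 189 and 93.4 CPM (-1.02), complete the 6 genes. Hsd17b6 (-0.72) and Apof (-0.56) were lower by less than 2-fold. Hsd17b13, at 198 and 383 CPM (0.95), and Aldh1b1, at 38.1 and 59.9 CPM (0.66), were higher at 48 h in this set too. When the counts were instead divided by those of the 10 hepatocyte markers, 3 of the 10 genes were at least 2-fold lower and 2 at least 2-fold higher. That scaling raised the log2 ratio of every gene by 0.39, to a median of 0.50 over all genes. The shares of all genes past 2-fold at that scaling were not computed. The median of the 10 genes lay 1.23 below that of all genes, a difference that a shift shared by all genes cannot change.

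**Figure D2:**
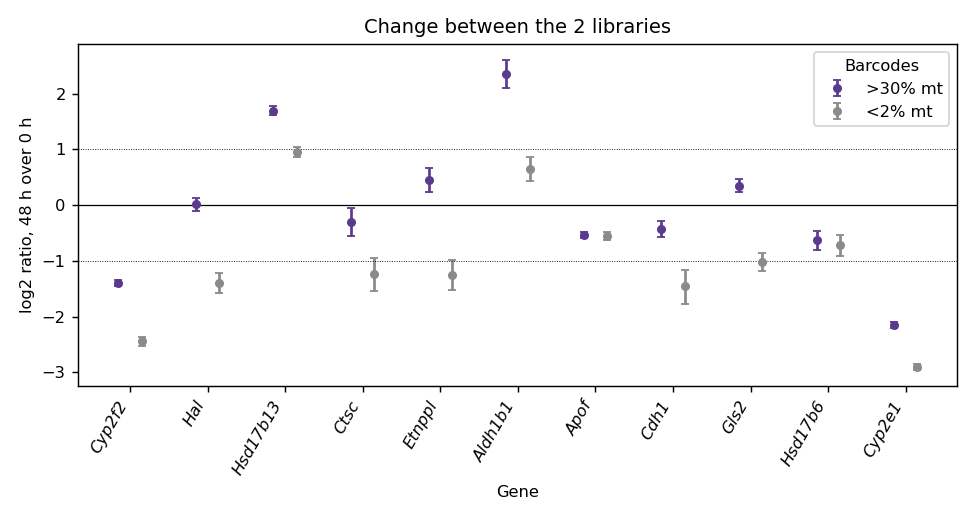
Log2 ratio of 48 h over 0 h for the 10 periportal genes and Cyp2e1, in barcodes with more than 30% mt UMIs (purple) and less than 2% (grey), on non-mt UMIs. Bars are 95% intervals for counting error and dotted lines mark 2-fold. Apof and Hsd17b6 have nearly the same ratio in both sets, and the other 8 genes lie higher in the >30% mt set. Etnppl and Gls2 lie above 0 in the >30% mt set here, but below 0 with TMM scaling (-0.11 and -0.21).

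The ratio differed between the 2 sets of barcodes for most of the genes, and also for Alb, serum albumin, by 1.31 on the log2 scale. The log2 ratio in the >30% mt set exceeded that in the <2% mt set by at least 1 for 6 of the 10 genes, against 29.4% of the 6115 genes compared, and the median of this difference was 1.04 over the 10 genes and 0.55 over all. It was largest among the 10 for Etnppl, at 1.70 (1.36 to 2.04), and Aldh1b1, at 1.69. It was near 0 for Apof, at 0.03 (-0.07 to 0.12), and for Hsd17b6, at 0.09 (-0.16 to 0.33). In the barcodes with 2 to 30% mt UMIs, which hold most of those with markers of other cells, 5 of the 10 genes were at least 2-fold lower at 48 h and 1 at least 2-fold higher, where 7.94% and 23% of 8101 genes were.

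Within the undamaged library the 2 sets differed in both directions. Cdh1 was the only one of the 10 genes that differed by 2-fold, with 179 CPM in the >30% mt set and 79.6 CPM in the <2% mt set, or 1.17 higher on the log2 scale, where 13.6% of 6337 genes were at least 2-fold higher and 10.8% at least 2-fold lower. Hsd17b13 (0.62), Apof (0.45) and Hsd17b6 (0.16) were also higher in the >30% mt set. Etnppl (-0.67), Aldh1b1 (-0.52) and Ctsc (-0.47) were lower there by less than 2-fold, and Cyp2f2, Gls2 and Hal had log2 ratios of -0.14, -0.12 and -0.06. In the PHx48h library all 10 genes were higher in the >30% mt set, 6 of them by at least 2-fold, where 35.2% of 7380 genes were at least 2-fold higher and 7.24% at least 2-fold lower. Cdh1 again had the widest ratio, at 133 against 29.0 CPM (2.19), followed by Hsd17b13 (1.36), Hal (1.35), Gls2 (1.25), Aldh1b1 (1.17) and Etnppl (1.03). The 10 general hepatocyte markers lay alike, with 6 at least 2-fold higher and a median of 1.09, against 1.10 over the periportal genes.

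**Figure D3:**
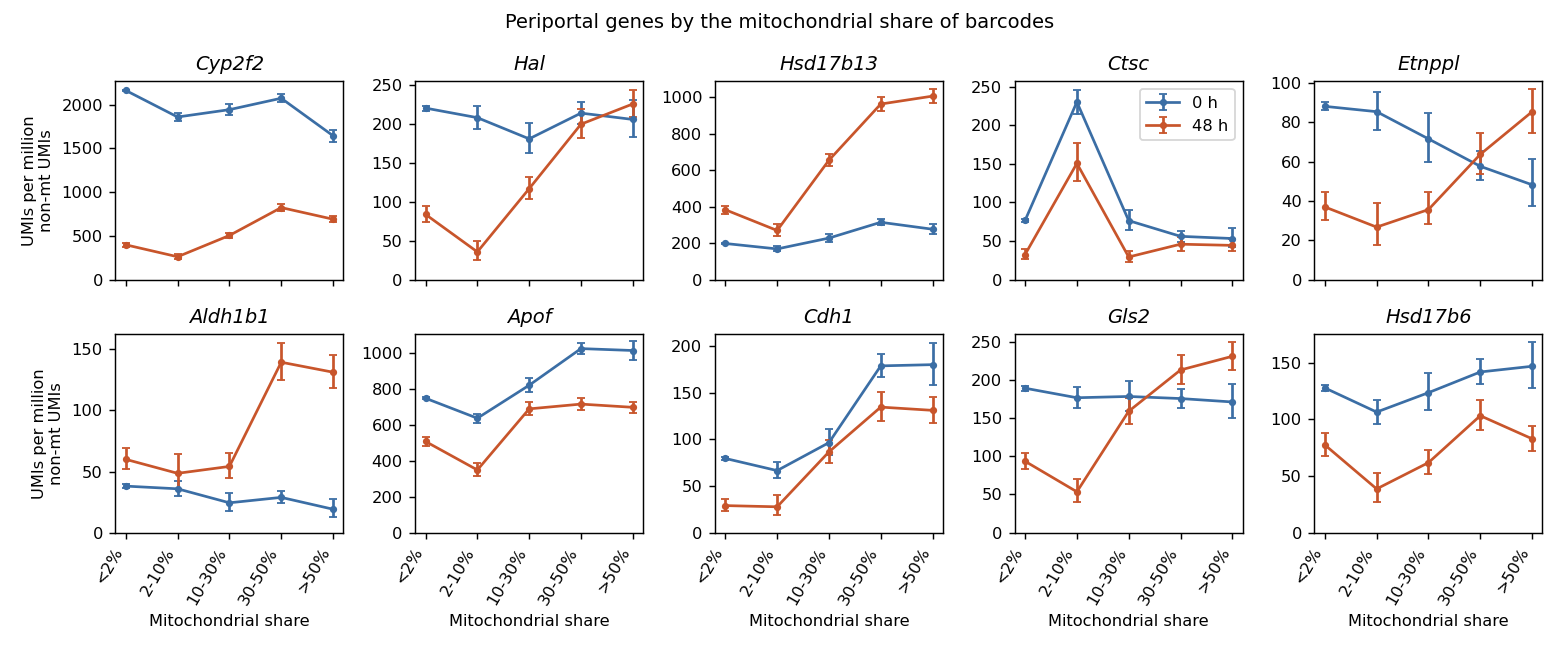
Level of each of the 10 genes, in CPM, over 5 ranges of the mt share of barcodes at 0 h (blue) and 48 h (orange). Points are sums over the barcodes of 1 library and bars are 95% Poisson intervals. At 48 h Hal lies at 83.9 CPM below 2% mt and at 226 CPM above 50% mt, while at 0 h it lies between 181 and 220 CPM, and Ctsc peaks between 2% and 10% mt in both libraries.

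Ctsc departed from the other genes in where it was found. In barcodes with 2 to 30% mt UMIs and macrophage markers above the 1% limit it was at 1038 CPM (950 to 1131, 173 barcodes) at 0 h and at 997 CPM (801 to 1227, 16 barcodes) at 48 h. In the >30% mt barcodes without markers of another class it was at 54.9 and 45.1 CPM. Cdh1, which cholangiocytes also use, could not be checked in the same way, since no barcode reached the 1% limit on cholangiocyte markers. Its level was only set beside the pooled markers of those cells, which does not show which barcodes it came from. The 7 cholangiocyte markers together were at 19.0 CPM (0 h) and 24.9 CPM (48 h) in the >30% mt set, below Cdh1 in both libraries. Of the 7, 4 had UMIs at 0 h, where Krt19, Krt7 and Epcam were at 0. At 48 h 5 had UMIs, and Krt19 and Tspan8 were at 0. In the macrophage-marker barcodes Cdh1 was at 36.1 and 22.4 CPM.

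Across the >30% mt barcodes the periportal genes ran against Cyp2e1 in both libraries. The correlation was taken over barcodes with at least 1000 non-mt UMIs, each thinned to 1000 (2471 of 3870 barcodes at 0 h and 761 of 765 at 48 h), and is a description in which all barcodes share 1 library. Spearman's rho with Cyp2e1 was negative for 10 of the 10 genes at each time. It was negative for 9 at each time with a limit of 50% mt, for 9 at 48 h when thinned to 500, and for 7 at 48 h when thinned to 1000 UMIs with mt UMIs included. In the main setting it was -0.1 or lower for 7 of them at 0 h, where 8.42% of the 1009 genes with at least 100 CPM reached that value, and for 6 at 48 h, where 4.65% of 1334 did. None of the 10 reached 0.1, as 13.9% (0 h) and 6.3% (48 h) of those genes did. Ctsc, Etnppl and Aldh1b1 at 0 h, and Ctsc, Etnppl and Hsd17b6 at 48 h, lay below 100 CPM. They are thus set beside genes of higher level. The median over the 10 genes was -0.144 at 0 h and -0.132 at 48 h.

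Cyp2f2 had the strongest relation at 0 h, with a rho of -0.478, and -0.243 at 48 h. Hsd17b13 had -0.292 and -0.302, so it ran against Cyp2e1 in both libraries although its level was higher at 48 h. Cdh1 had -0.224 and -0.161, Hal -0.166 and -0.160, Hsd17b6 -0.160 and -0.086, and Gls2 -0.114 and -0.172. Apof had -0.127 at 0 h and -0.011 at 48 h. Ctsc (-0.080 and -0.081), Aldh1b1 (-0.049 and -0.077) and Etnppl (-0.039 and -0.104) had small values at this depth, where each had a mean of 0.117 UMI per barcode or less. Without thinning, over all barcodes of the set, the 48 h values were larger, with a median of -0.336, -0.516 for Cyp2f2 and -0.110 for Apof, while the 0 h median was -0.140. The unthinned values rest on a median of 1213.5 non-mt UMIs at 0 h and 4411 at 48 h and are not compared between times.

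Correlations between the genes themselves were weaker at this depth. At 0 h the mean UMIs per thinned barcode ran from 0.0263 (Aldh1b1) to 1.90 (Cyp2f2) among the 10, against 3.33 for Cyp2e1. The part of these low counts was not tested. Without thinning the median rho over the pairs was 0.086 at 0 h and 0.238 at 48 h, and the values that follow are thinned. Of the 45 pairs, 38 were positive at 0 h with a median rho of 0.039, and 40 at 48 h with a median of 0.062. Of all pairs of genes with at least 100 CPM, 260206 of 509545 were positive at 0 h and 445507 of 890445 at 48 h. Some of the periportal genes lay below that level, here and in the <2% mt barcodes, and are set beside genes of higher level. With a limit of 50% mt, 28 pairs of the periportal genes were positive at 0 h, and thinned with mt UMIs included, 33 at 48 h. A rho of at least 0.1 was reached by 5 pairs at 0 h, where 0.457% of all pairs did, and by 13 pairs at 48 h, where 0.94% did. In the <2% mt barcodes 21 pairs were positive at 0 h and 30 at 48 h. Of all pairs of genes there, 306363 of 646953 were positive at 0 h and 392612 of 789396 at 48 h. A rho of 0.1 was reached by 0 and 1 of the 45 pairs, where 0.000309% and 1.49% of all pairs did. The highest pair at 0 h was Cyp2f2 with Hsd17b13, at 0.217, followed by Cyp2f2 with Hsd17b6, at 0.160. At 48 h it was Hal with Hsd17b13, at 0.170, followed by Hal with Hsd17b6, at 0.154. Apof with Gls2 was below 0 in both libraries, at -0.012 and -0.083. Against the summed UMIs of the other 9 genes, rho was positive for each gene, from 0.026 (Etnppl) to 0.285 (Cyp2f2) at 0 h and from 0.062 (Apof) to 0.238 (Cyp2f2) at 48 h.

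**Figure D4:**
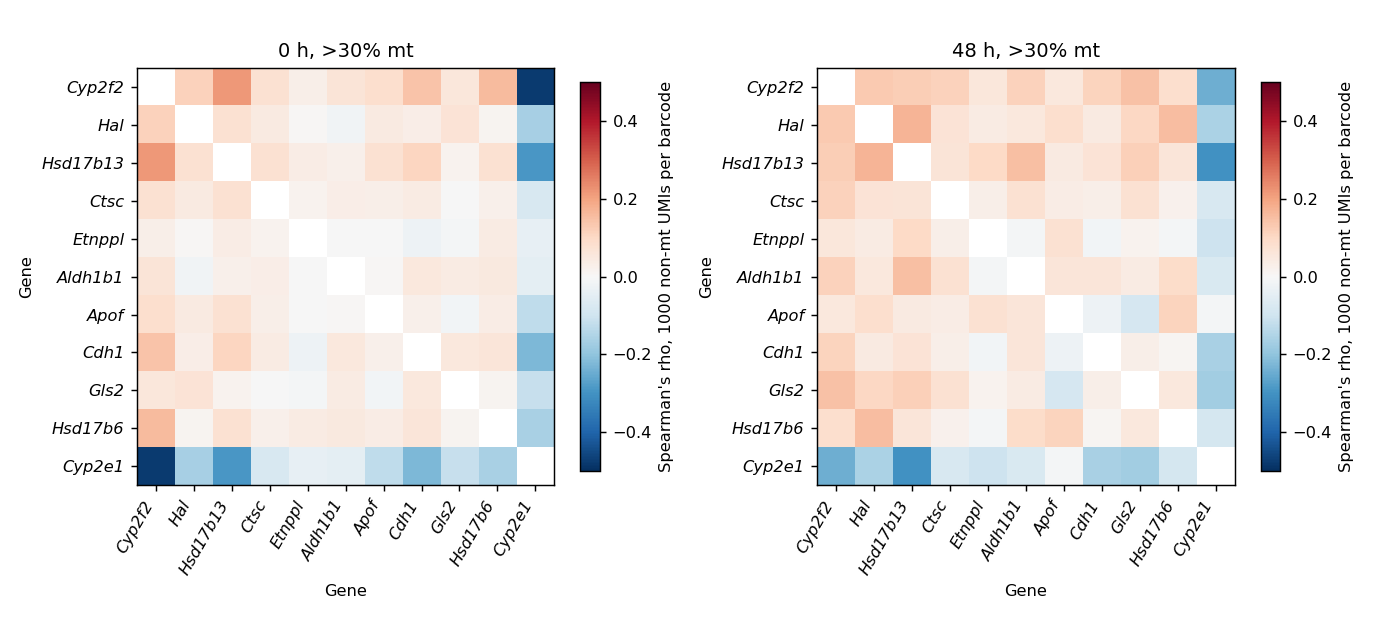
Spearman's rho between the 10 periportal genes and Cyp2e1 across barcodes with more than 30% mt UMIs, thinned to 1000 non-mt UMIs, at 0 h (left, 2471 barcodes) and 48 h (right, 761 barcodes). Red is positive, blue is negative and the diagonal is blank. The row and column of Cyp2e1 are blue throughout, down to -0.478 for Cyp2f2 at 0 h, and most pairs of periportal genes are pale red.

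Summed over the 10 genes, rho with Cyp2e1 was -0.540 at 0 h and -0.396 at 48 h in the >30% mt barcodes, and -0.005 and 0.020 in the <2% mt barcodes. The summed genes were also related to depth (rho of 0.207 and 0.177) and to the mt share (-0.118 and -0.101) in the >30% mt set, and the part of these in the correlations was not tested. The median rho of single genes with Cyp2e1 in the <2% mt set was -0.002 at 0 h and 0.018 at 48 h. At 0 h no gene there reached -0.1 or 0.1 with Cyp2e1, of the 10 or of all 1137 with at least 100 CPM. At 48 h Aldh1b1 (-0.123) and Gls2 (-0.109) reached -0.1, as 1.91% of 1256 genes did, and Hal (0.113) reached 0.1, as 1.35% did. Aldh1b1, Gls2 and Hal were at 59.9, 93.4 and 83.9 CPM there, below the 100 CPM that those 1256 genes reached. The spread followed the same division. At 1000 UMIs per barcode the variance of the summed genes was 1.77 times (0 h) and 1.87 times (48 h) the mean in the >30% mt set, and 1.02 and 1.18 times the mean in the <2% mt set, where counting alone gives about 1. For Cyp2f2 the same ratio was 1.57 and 1.29 in the >30% mt set and 1.01 and 1.11 in the <2% mt set.

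Ordering the >30% mt barcodes by their share of Cyp2e1 showed the size of these relations. The barcodes with at least 1000 non-mt UMIs were cut into 5 bins of nearly equal size, with 494 or 495 barcodes at 0 h and 152 or 153 at 48 h. In all, 9 of the 10 genes were at least 2-fold higher in the bin with the lowest Cyp2e1 than in the bin with the highest, in both libraries, where 4.4% of 6592 genes (0 h) and 5.61% of 7784 genes (48 h) were. None was at least 2-fold lower there, where 13.8% and 6.53% of genes were. The median fold over the 10 genes was 3.63 at 0 h and 6.24 at 48 h. The bins at 48 h differed in depth, with medians from 2984 to 9660 non-mt UMIs, against 1514 to 1687 at 0 h, and the folds of the 2 libraries are therefore given side by side without a comparison.

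Cyp2f2 was lower only in the 2 upper bins at 0 h, with 2656, 2775 and 2531 CPM in the 3 lower bins and 1574 and 601 CPM in the upper ones. At 48 h its bins held 1076, 1012, 729, 346 and 185 CPM, a ratio of lowest to highest of 5.82 (4.86 to 7.01), beside 4.42 (4.01 to 4.88) at 0 h. Hsd17b13 had 429 against 47.5 CPM at 0 h, or 9.04-fold (6.52 to 12.9), and 1254 against 291 CPM at 48 h, or 4.31-fold (3.72 to 5.01). Its level at 48 h was above that at 0 h in each of the 5 bins, but the bins were cut within each library and are not matched. Cyp2e1 in the lowest bin was at 286 CPM at 0 h and 21.2 CPM at 48 h.

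Hsd17b6 was 6.40-fold (4.15 to 10.3) higher in the lowest bin at 0 h and 9.47-fold (5.37 to 18.2) at 48 h. Aldh1b1 had 34.2 against 14.2 CPM at 0 h, or 2.40-fold (1.19 to 5.14), and 207 against 25.8 CPM at 48 h, or 7.99-fold (4.98 to 13.6). The UMIs behind its highest bin were 12 and 19, which leaves these folds wide intervals.

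Hal had 280 against 83.1 CPM at 0 h, or 3.37-fold (2.58 to 4.46), and 348 against 46.2 CPM at 48 h, or 7.53-fold (5.28 to 11.1). Gls2 was 2.83-fold (2.10 to 3.86) and 4.71-fold (3.42 to 6.61) higher in the lowest bin, and Etnppl 2.14-fold (1.33 to 3.54) and 6.39-fold (3.65 to 12.1). Thus the enzymes of amino acid and amine breakdown, whose summed level differed little or in a direction set by the scaling, were ordered against Cyp2e1 in both libraries. Cdh1 had the largest estimate of the 10 at 48 h, at 174 against 16.3 CPM or 10.7-fold (5.94 to 21.1), beside 7.35-fold (5.07 to 11.0) at 0 h. Its interval at 48 h overlapped those of other genes, among them Hsd17b6, Aldh1b1 and Hal, so it is not set apart from them. At 48 h the highest bin held 12 UMIs of Cdh1, 13 of Hsd17b6, 14 of Etnppl and 7 of Ctsc. Ctsc was 3.89-fold (2.30 to 6.93) and 6.10-fold (2.76 to 15.9) higher. Apof was the exception, with 1.31-fold (1.19 to 1.44) at 0 h and 1.29-fold (1.14 to 1.46) at 48 h. In both libraries 9 of the 10 genes were thus at least 2-fold higher where Cyp2e1 was lowest, and Apof differed little along this ordering. The ordering is no test of the periportal label, since the genes were chosen with earlier results of these data known. Alb, one of the general hepatocyte markers, was also higher in the lowest bin, by 2.37-fold at 0 h and 1.57-fold at 48 h. Of 17 other genes listed as periportal, 7 reached 2-fold in each library.

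**Figure D5:**
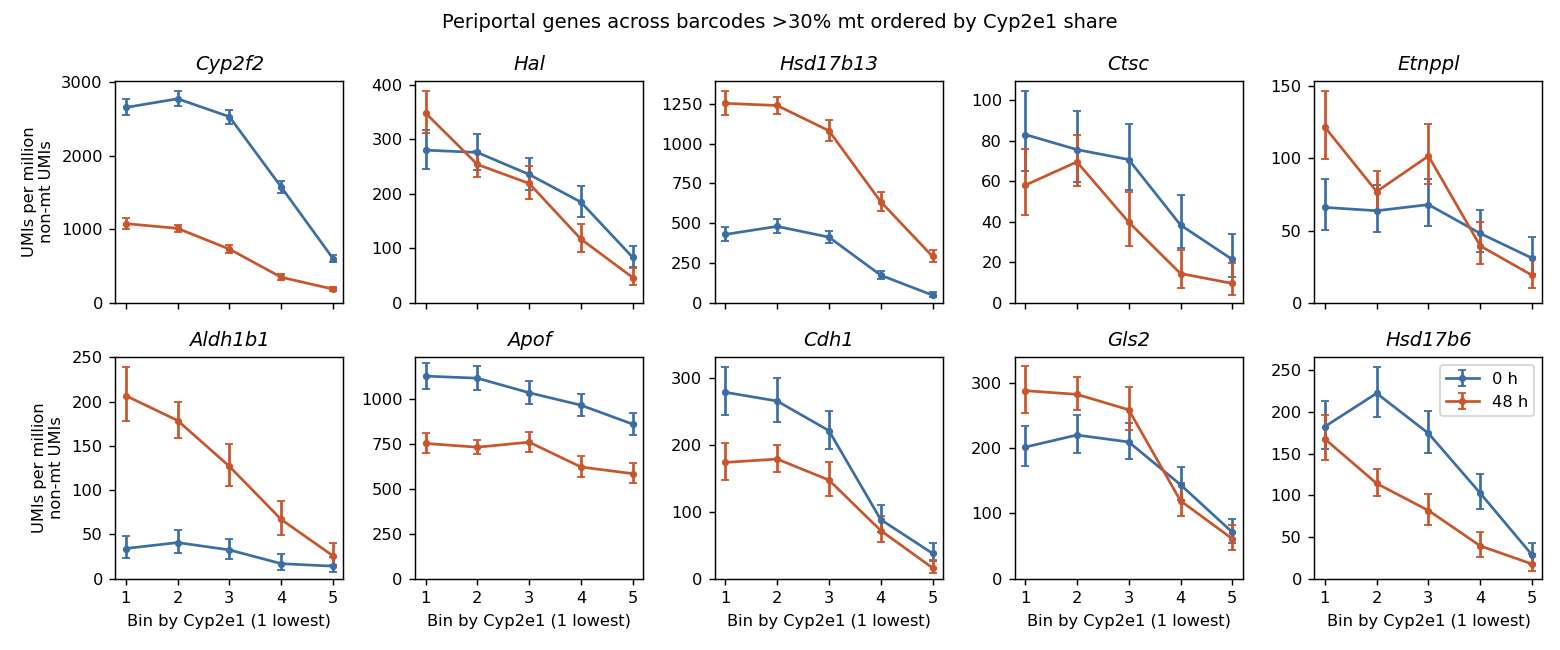
Level of each of the 10 genes, in CPM, in bins of the >30% mt barcodes ordered from the lowest (1) to the highest (5) share of Cyp2e1, at 0 h (blue) and 48 h (orange). Points are sums over the barcodes of a bin and bars are 95% Poisson intervals. All 10 genes are lower in bin 5 than in bin 1 in both libraries, least so Apof, at 1.31-fold and 1.29-fold.

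The share of barcodes with a UMI was read beside that in the barcodes with markers of other cell classes, as a background. At 1000 non-mt UMIs Cyp2f2 was found in 74.0% of the >30% mt barcodes at 0 h (exact binomial interval 72.2 to 75.7%) and in 68.3% (62.5 to 73.8%) of the 278 other-class barcodes. At 48 h the shares were 43.5% and 20.9%. Hsd17b13 was found in 24.6% against 11.5% at 0 h and in 54.1% against 9.30% at 48 h. Cdh1 was found in 15.3% against 5.76% and in 13.1% against 2.33%. At 0 h the shares of Gls2 (14.2% against 15.5%) and Etnppl (5.30% against 7.91%) did not exceed the other-class share, so these shares alone are read as background, beside the ratios along Cyp2e1 given above. Those of Hal (19.3% against 16.9%) and Aldh1b1 (2.47% against 2.16%) lay within the interval of the other-class share. At 48 h, with 43 other-class barcodes, the same held for Aldh1b1 (10.2% against 6.98%, interval 1.46 to 19.1%), Etnppl (7.23% against 4.65%) and Hsd17b6 (8.15% against 2.33%). Without thinning the shares of the >30% mt barcodes were 73.0% (0 h) and 77.6% (48 h) for Cyp2f2 and 29.7% and 86.7% for Hsd17b13, at the different depths of the libraries. Median depth before thinning was 1563 and 4428 non-mt UMIs in the >30% mt barcodes used, and 2722 and 5769 in the other-class barcodes. For Ctsc the other-class share was the higher, at 44.2% against 5.22% (0 h) and 34.9% against 3.55% (48 h), so it gives no background for this gene.

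A further 18 genes listed as periportal included enzymes of gluconeogenesis, urea synthesis and amino acid breakdown. Of the 17 with enough counts in the >30% mt barcodes, 2 were at least 2-fold lower at 48 h, G6pc (-2.14 on the log2 scale) and Pigr (-1.56), and 7 were at least 2-fold higher, among them Apoa4 (4.70), Arg1 (2.04), Sds (1.58) and Pck1 (1.51). Their median was 0.76, near the 0.59 of all genes. Of 15 pericentral genes with enough counts, 7 were at least 2-fold lower and 1 at least 2-fold higher (Lhpp, 1.02), with a median of -0.53. In the <2% mt barcodes the further periportal genes had 3 lower and 5 higher by at least 2-fold, with a median of 0.06, and the pericentral genes 6 lower and none higher, with a median of -0.77. In the >30% mt set the other enzymes of the pathway that Hal opens had log2 ratios of 0.57 (Uroc1), -0.21 (Amdhd1) and -0.21 (Ftcd). Of the relatives listed beside the 10 genes, Hsd17b11 had -1.16 where Hsd17b13 had 1.69, and Aldh2 had 0.25 where Aldh1b1 had 2.35. Rdh7 and Rdh16, retinol dehydrogenases related to Hsd17b6 (-0.63), had -1.20 and -0.50, and Cdh2 had -0.59 where Cdh1 had -0.43. Rdh9 was below 10 CPM in both libraries. Around Etnppl, the ethanolamine kinases had 1.28 (Etnk2) and 0.36 (Etnk1), and Pcyt2, the next enzyme of phosphatidylethanolamine synthesis, had 0.00.

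Genes whose pattern was most like that of the 10 were taken across the >30% mt barcodes as those with the highest and lowest rho with the summed 10 genes in both libraries, among 842 genes with at least 100 CPM in both. A rho of at least 0.1 was found for 5.68% of 1003 genes at 0 h and 4.97% of 1328 at 48 h, and a rho of -0.1 or lower for 10.4% and 7.91%. In the <2% mt barcodes no gene passed either limit at 0 h, and 1.99% and 2.31% of 1254 genes did at 48 h. The most alike were Alb, serum albumin (0.578 at 0 h and 0.433 at 48 h), Hpx, hemopexin (0.481 and 0.366), Mup20 (0.407 and 0.326), Trf, transferrin (0.425 and 0.301), and Serpina1c (0.296 and 0.331). The most opposed were Cyp2e1 (-0.540 and -0.396), Cyp2c29 (-0.458 and -0.364), Cyp2a5 (-0.394 and -0.356), Mup17 (-0.453 and -0.335) and Oat (-0.249 and -0.290). The 5 most alike are led by plasma proteins and the 5 most opposed include 3 cytochrome P450 genes. The summed 10 genes consist mostly of Cyp2f2 and Apof at 0 h, and of Hsd17b13, Cyp2f2 and Apof at 48 h. Likeness to the sum is thus mainly likeness to these genes. The ranking was not adjusted for level, and the 5 most alike lay between 7388 CPM (Hpx) and 44962.5 CPM (Alb) at 0 h. Sds, at 123 CPM, had a rho of only 0.175 at 0 h. Along the Cyp2e1 bins Sds was 12.0-fold higher in the lowest at 0 h, against 2.37-fold for Alb. The part of level in the ranking was not tested. Mup20, Mup17, Serpina1c, Cyp2c29 and Cyp2a5 belong to families of related genes, so their counts may be uncertain, which was not tested. Each correlation was taken over 2471 barcodes of the 0 h library and 761 of the 48 h library.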

How the data were processed

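The deposited values were UMI counts per gene and barcode, whole numbers without normalization, which the authors made with Cell Ranger (version not given in the sources used here) on mm10, as listed in the submitters' processing notes. The study methods name filters on mt content and doublets without thresholds. Every deposited barcode was used and no doublets were called here. The 10 genes, the comparison lists, the rule for named genes and the alternatives were chosen with earlier results of these data known. The named genes were the 10, Cyp2e1, the list genes and the 5 genes most and least like the summed 10.

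Counts were summed over the barcodes of a set and divided by its non-mt total, with exact Poisson intervals (Python 3.11.15, numpy 2.4.6, scipy 1.17.1, pandas 2.3.3). Ratios had exact conditional binomial intervals. Genes were compared at 10 CPM or more in either group, and a ratio was called at 2-fold. Spearman's rho was computed on barcodes thinned to 1000 non-mt UMIs, with a seed per barcode, and called at 0.1. The steps were tested on simulated data. TMM factors came from edgeR 4.0.16 in R 4.3.3, with no edgeR test. Coordinates and gene starts came from GENCODE M21 (GRCm38).

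Library totals were 96118593 UMIs (0 h, median of 1436 per barcode) and 18198719 UMIs (48 h, median of 6838.5). With 1 library per time no test between times was run. The alternatives were other mt limits, denominators, scalings and thinning depths, a minimum depth, an added 10 CPM, and correlations without thinning or on Pearson residuals.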

Additional observations from a re-analysis of the deposited data

Results flagged for a closer look

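Etnppl and Gls2 had ratios of 48 h over 0 h with opposite signs in the 2 sets of barcodes. For Etnppl the log2 ratio was 0.45 in the >30% mt set and -1.25 in the <2% mt set, a difference of 1.70 (1.36 to 2.04, counting error only). For Gls2 it was 0.35 and -1.02, a difference of 1.37 (1.16 to 1.58). The difference was not tested, since each time had 1 library, and with TMM scaling both genes had negative ratios in both sets.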

How the results depend on the processing

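No paired analysis was possible because each time point had 1 library, and no replicate could be left out. None of the medians and counts over the 10 genes changed its sign except the median log2 ratio in the >30% mt set, which was -0.14 and became 0.0934 per UMI of the hepatocyte markers, an alternative added after seeing the data. That median was -0.40 with all UMIs as denominator, -0.70 with TMM and -0.40 without the 20 most abundant genes, and TMM gave 3 genes at least 2-fold lower instead of 1. In the <2% mt set the median was -1.47 with TMM and -0.73 per hepatocyte marker UMI, where 3 genes were at least 2-fold lower instead of 6. Each of these scalings moved all genes of a set by the same amount, and the shares of all genes past 2-fold at them were not computed. The median rho with Cyp2e1 at 0 h was -0.0871 when thinned to 500 UMIs and -0.0846 when thinned to 1000 UMIs with mt UMIs included. At 48 h it was -0.336 without thinning, -0.291 on Pearson residuals and -0.0520 when thinned with mt UMIs included, and the median rho among the genes was 0.238 without thinning and 0.217 on Pearson residuals. Thinning to a lower depth leaves fewer UMIs of each gene. The barcodes used also changed, at 0 h from 2471 to 3795 when thinned to 500 and to 3870 with mt UMIs included. The part of either in these values was not tested.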

Other observations

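Genes of the further periportal list differed in how they ran along the Cyp2e1 ordering of the >30% mt barcodes. Sds, serine dehydratase, was 12.0-fold (6.80 to 22.9) higher in the bin with the lowest Cyp2e1 than in that with the highest at 0 h and 7.81-fold (5.90 to 10.5) at 48 h. Uroc1, which follows Hal in histidine breakdown, was 4.63-fold and 2.61-fold higher, and Pigr, the polymeric immunoglobulin receptor, 4.04-fold and 2.96-fold.

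The 5 urea cycle genes were nearly flat at 0 h, with ratios of 1.03 (0.956 to 1.10) for Cps1, 1.04 (0.932 to 1.16) for Ass1, 1.15 (0.985 to 1.34) for Asl, 0.942 (0.719 to 1.24) for Arg1 and 0.885 (0.692 to 1.13) for Otc. At 48 h the ratios were 1.53 (1.44 to 1.64) for Cps1, 1.54 (1.41 to 1.68) for Ass1, 1.77 (1.56 to 2.02) for Asl and 1.68 (1.45 to 1.95) for Arg1, while that of Otc was 1.15 (0.908 to 1.47). The bins of the 2 libraries differ in depth, so these are given side by side, with 1 library each. Of the 17 listed genes compared, 7 were at least 2-fold higher in the lowest bin in each library.

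Alb, serum albumin, was 2.37-fold higher in the lowest bin at 0 h and 1.57-fold at 48 h. Oat, ornithine aminotransferase, ran the other way, at 0.173 and 0.148 times the level of the highest bin, and Glul, glutamine synthetase, at 0.0517 and 0.0786 times.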
